A study of Homo sapiens with 4 samples.

Results

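The 10 transcription factor genes described here were PAX5, EBF1, IKZF1, TCF3, ETV6, RUNX1, LEF1, FOXO1, BCL6 and IRF4. They were chosen by name, as factors that act in the B lineage together with ETV6 and RUNX1, the fusion partners carried by this leukemia line, and all 10 were found among the 29833 genes of the deposited expression table. A mean of at least 1 FPKM over the 4 libraries was reached by 9 of the 10, and only IRF4 stayed below it. FPKM scales a gene's reads to its length and to the depth of the library, so that levels can be compared between genes.

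RNA-seq was performed in Reh-6-MPR cells, a 6-mercaptopurine (6-MP) resistant derivative of the human B-cell acute lymphoblastic leukemia (B-ALL) line Reh. The cells were given PBS as the vehicle, 4 mM histidine, 1.0 μg/mL 6-MP, or both agents for 48 h, so that each agent could be compared with and without the other, and each treatment had 1 library. All groups shared the same resistant line, labelled WT for genotype, which had been selected by culture in rising 6-MP. No parental Reh library was analysed here. Without replicates, differences between treatments could not be tested, and no p-value is given. The 95% intervals below (exact, Clopper-Pearson, from recovered reads) cover counting error between libraries, not the variation of a treatment.

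Commitment to the B lineage runs through a small network of these factors. The E protein TCF3 opens the programme, EBF1 and FOXO1 act with it, and PAX5 then fixes B-cell identity and silences other fates, while IKZF1 (Ikaros) restrains the growth of pre-B cells. LEF1 is the nuclear partner of β-catenin in Wnt signalling and is made in pro-B cells, BCL6 is a repressor that protects pre-B and germinal center B cells, and IRF4 ends the large pre-B stage and later directs plasma cells. RUNX1 binds DNA with CBFB and is needed at several of these steps, and ETV6 is an ETS family repressor. In Reh cells a translocation joins the front of ETV6 to most of RUNX1, and the other ETV6 allele is lost. The table gives 1 value per gene, so reads of the fusion transcript cannot be told apart here from other reads of ETV6 or RUNX1.

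The sequence just upstream of the start site was read for all 10 genes from the RefSeq promoter table (GRCh38.p14), in windows of 200 bases that run from 250 to 51 bases before the start. The windows of 4 members are printed 5′ to 3′ on the strand of the gene, because ETV6, FOXO1 and IRF4 were the members with more reads per library total in the combined library than with vehicle and IKZF1 was among those with fewer. They lie at chr7:50304466-50304665 (plus strand, IKZF1), chr12:11649424-11649623 (plus strand, ETV6), chr13:40666692-40666891 (minus strand, FOXO1) and chr6:391502-391701 (plus strand, IRF4). None of these 4 windows overlapped an exon of GENCODE 29, whereas those of LEF1 and BCL6, which are not printed, did. The windows of IKZF1, EBF1, RUNX1, LEF1 and BCL6 lie inside the deposited gene span, downstream of its first base. Capitals mark matches, on either strand, to any of 9 motifs that are spelled out after the sequences.
IKZF1: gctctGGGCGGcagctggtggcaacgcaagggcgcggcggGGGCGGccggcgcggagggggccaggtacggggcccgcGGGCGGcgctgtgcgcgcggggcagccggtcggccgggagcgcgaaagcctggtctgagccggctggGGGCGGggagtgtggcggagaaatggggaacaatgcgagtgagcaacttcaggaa
ETV6: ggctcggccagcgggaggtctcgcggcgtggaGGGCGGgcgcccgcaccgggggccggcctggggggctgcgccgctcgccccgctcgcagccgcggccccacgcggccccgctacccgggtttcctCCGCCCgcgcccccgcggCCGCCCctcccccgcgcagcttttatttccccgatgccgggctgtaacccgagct
FOXO1: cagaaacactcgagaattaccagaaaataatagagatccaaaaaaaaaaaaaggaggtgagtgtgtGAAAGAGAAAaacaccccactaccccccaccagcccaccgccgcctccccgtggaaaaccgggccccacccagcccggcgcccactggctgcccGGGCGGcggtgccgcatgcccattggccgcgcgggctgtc
IRF4: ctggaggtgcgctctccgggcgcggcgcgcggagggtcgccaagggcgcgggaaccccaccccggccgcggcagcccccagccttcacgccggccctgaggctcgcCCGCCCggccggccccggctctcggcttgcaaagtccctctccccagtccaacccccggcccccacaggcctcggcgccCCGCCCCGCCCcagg

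The motif most shared by the members was the GC box, GGGCGG. It was present in the windows of 8 of the 10 members, all except EBF1 and BCL6, and in 35.0% of the 35116 RefSeq windows of the same length. IKZF1 held 4 GC boxes, and ETV6, TCF3 and IRF4 held 3 each, where 2 of those of IRF4 overlap. Of the 10 windows, 7 held more G and C than the median of 57.5% over all windows, up to 81% in ETV6 and IRF4, whereas BCL6 was at the median and EBF1 (57%) and LEF1 (47.5%) were below it. The interferon regulatory factor type motif, GAAA repeated after 2 free bases, occurred once, at position -184 from the start of FOXO1, and in 2.39% of all windows. The ETS motif CCGGAA was found in the windows of RUNX1 and BCL6 (10.0% of all windows), the Ikaros motif TGGGAA in those of EBF1 and LEF1 (17.5%), the RUNX motif TGTGGT in that of LEF1 (8.99%) and the LEF1/TCF motif CTTTGA in that of BCL6 (9.39%). The matches in LEF1 and BCL6 lie in windows that overlap annotated exons. The E-box CAGGTG (14.9%), the EBF motif, TCCC and GGGA with 2 free bases between them (0.851%), and the FOXO motif GTAAACA (2.35%) were in none of the 10 windows. A match describes letters only, and no binding was measured in these cells.

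The depth behind the values was 12899122 to 15486376 reads per library, lowest for the combined treatment. The library of the combined treatment stood apart from the other 3. Among the 4676 genes with a mean of at least 10 FPKM, the central 95% of its log2 differences from vehicle ran from -0.87 to 0.94, whereas it ran from -0.21 to 0.26 for histidine and from -0.21 to 0.24 for 6-MP. It also had the most genes above 0, 25443 against 23635 to 23978 in the others, although it had the fewest reads. The median log2 difference of the combined library from vehicle was 0.13 over the 12750 genes with a mean of at least 1 FPKM, called tested genes here, so a member at 0 lay below the middle of all genes. Over the 4676 genes with a mean of at least 10 FPKM that median was 0.0094, so a member at 0 lay near their middle. In bulk RNA, a lower share of cells that make a transcript and less of it per cell cannot be told apart.

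In vehicle-treated cells the members covered a wide range of levels, in the order LEF1, TCF3, PAX5, EBF1, IKZF1, RUNX1, FOXO1, BCL6, ETV6 and IRF4. LEF1 was at 122 FPKM and IRF4 at 0.131 FPKM. Among the genes tested, 98.1% had a lower mean level than LEF1 and 98.0% a lower one than TCF3, whereas only 5.18% lay below ETV6. Neighbours in this order were separated by more than their counting intervals, except RUNX1 and FOXO1 in the histidine library (20.4 and 20.3 FPKM) and in the 6-MP library (18.6 and 20.01 FPKM). In the combined library the order changed at 2 places, with TCF3 (93.8 FPKM) above LEF1 (84.9 FPKM) and FOXO1 (27.4 FPKM) above IKZF1 (23.4 FPKM).

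**Figure D1:**
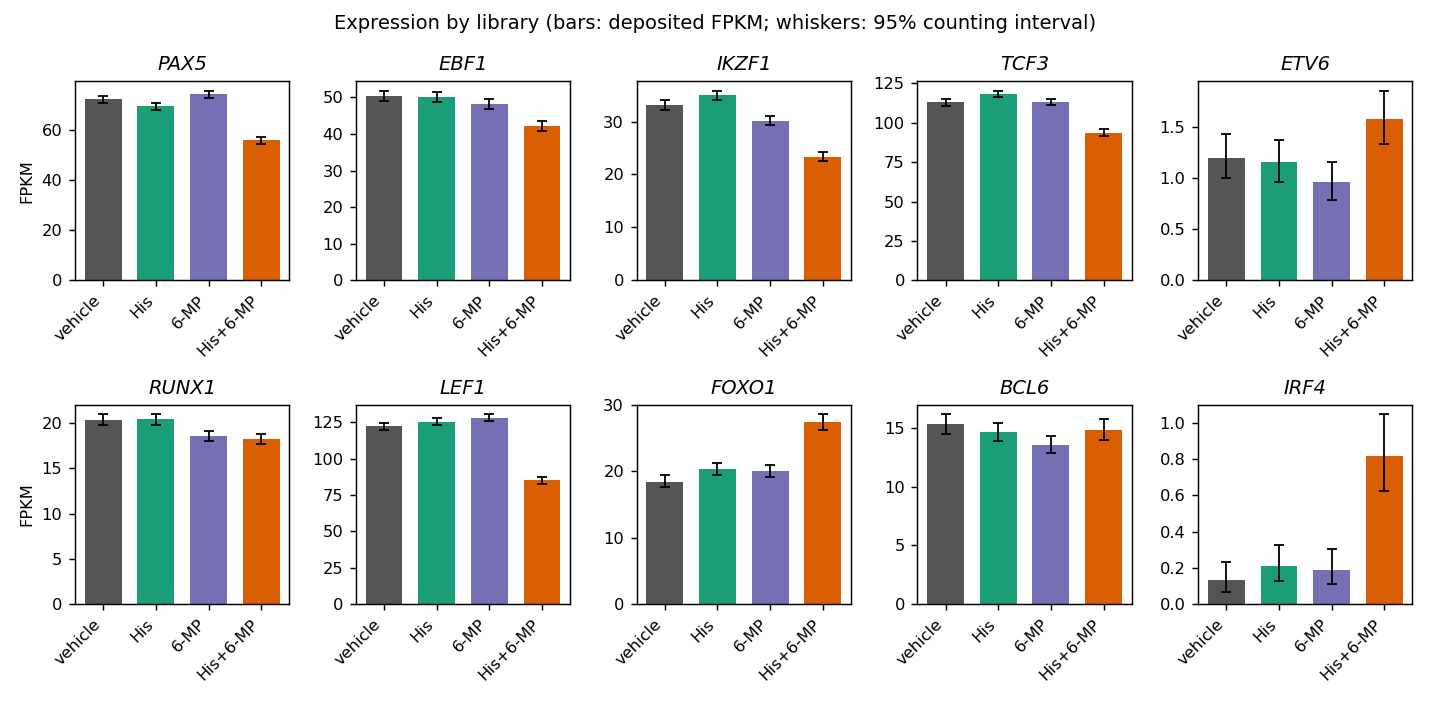
FPKM (vertical axes, each starting at 0 and with its own scale) of the 10 members in the vehicle, histidine, 6-MP and combined libraries; bars are the deposited values of 1 library each and whiskers are 95% counting intervals. LEF1, IKZF1, PAX5, TCF3 and EBF1 are lowest in the combined library, and FOXO1, ETV6 and IRF4 are highest in it.

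The monotherapies left the members close to vehicle. On the scale of log2(FPKM + 1), the 9 members that reached a mean of 1 FPKM differed from vehicle by -0.06 to 0.13 with histidine and by -0.17 to 0.11 with 6-MP. An absolute difference of at least 1 was reached by 0 of 9 members with histidine, where 1.33% of all tested genes reached it, and by 0 of 9 with 6-MP, where 1.18% did. By the counting interval alone, 3 members were higher (FOXO1, IKZF1 and TCF3) and 1 was lower (PAX5) in the histidine library, against 13% and 8.74% of all tested genes. In the 6-MP library FOXO1, LEF1 and PAX5 were higher and BCL6, EBF1, IKZF1 and RUNX1 were lower, 3 and 4 of 9, against 10% and 7.95% of all tested genes. The more reads a gene has the smaller the difference its interval can resolve, and all members except ETV6 and IRF4 had at least 1140 reads in every library.

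The combined treatment against vehicle gave 6 lower and 2 higher members. Again 0 of 9 reached the fold threshold, which 6.53% of all tested genes passed. PAX5, EBF1, IKZF1, TCF3, RUNX1 and LEF1 had fewer reads per library total than with vehicle, and FOXO1 and ETV6 had more, beyond the counting interval. The shares of all tested genes were 20.8% lower and 42.7% higher. The median log2 difference over the 9 members was -0.25, beside 0.13 over all tested genes. It was 0.0094 over the 4676 genes with a mean of at least 10 FPKM, a level that all tested members except ETV6 reached. After scaling each library by its median ratio to the geometric mean of the 4 libraries, which moved the combined library by 0.16 relative to vehicle on the log2 scale, the members' median was -0.40 and that of all tested genes 0.0014. The same scaling of the read ratios gave 7 lower members and 1 higher, beside 30.8% and 30.3% of all tested genes, because BCL6 then lay below vehicle and the interval of ETV6 included 0. The scaling was set over all tested genes above 0 in every library, not over those with a mean of at least 10 FPKM.

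**Figure D2:**
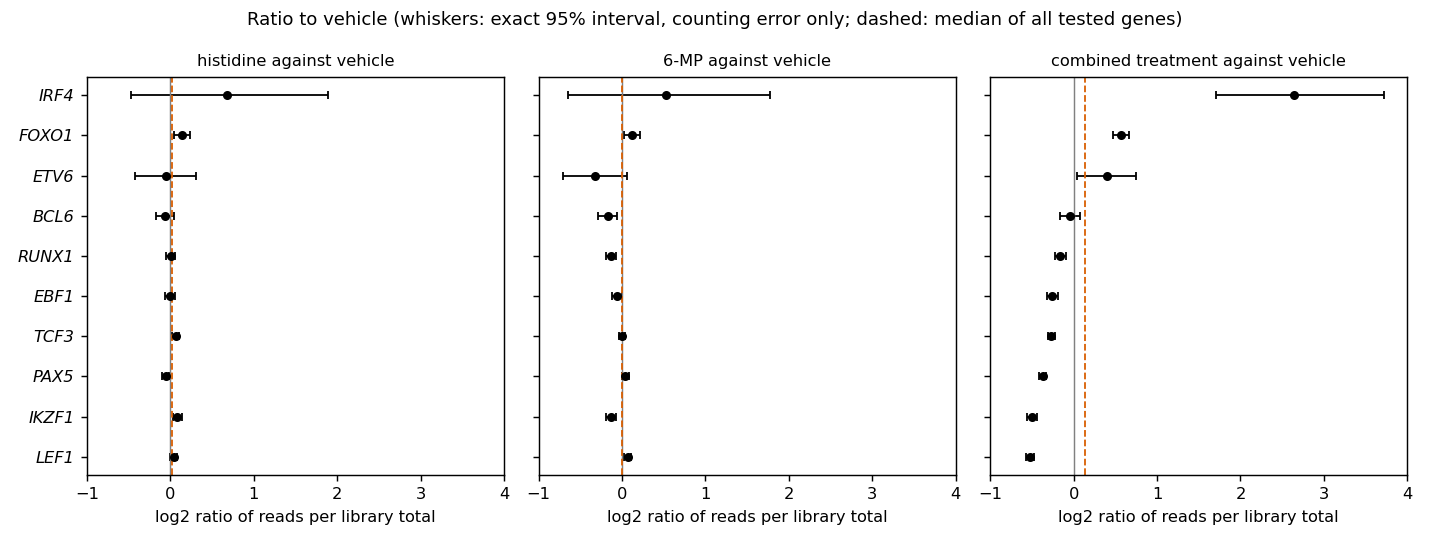
Log2 ratio of reads per library total (horizontal axes) of each member in the histidine, 6-MP and combined libraries against vehicle, with exact 95% intervals for counting error, 1 library per treatment. The dashed line is the median difference of all tested genes on the log2(FPKM + 1) scale, which is not the scale of the points. In the combined panel LEF1, IKZF1, PAX5, TCF3, EBF1 and RUNX1 lie left of 0, BCL6 spans it, and ETV6, FOXO1 and IRF4 lie right of it; with median ratio scaling BCL6 would lie left of 0 and ETV6 would span it.

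Against each monotherapy the same library gave similar values, and these comparisons are not independent of each other because they share it. Against 6-MP, 5 members were lower (EBF1, IKZF1, LEF1, PAX5 and TCF3) and 3 were higher (BCL6, ETV6 and FOXO1), beside 21.2% and 42.2% of all tested genes, and 0 of 9 reached the fold threshold, which 6.02% of all tested genes passed. Against histidine, 6 were lower and 2 higher, beside 22.1% and 41.2%, and 0 of 9 reached the threshold, which 5.55% passed. With median ratio scaling RUNX1 was added to those lower than with 6-MP and BCL6 was no longer higher, 6 lower and 2 higher beside 31% and 30.3% of all tested genes. Against histidine ETV6 was no longer higher, 6 lower and 1 higher beside 31.3% and 30.6%. The departure from additivity compares the combined treatment with the sum of the separate differences of histidine and 6-MP from vehicle. By a normal interval on the reads it was below 0 for EBF1, IKZF1, LEF1, PAX5 and TCF3 and above 0 for BCL6, ETV6 and FOXO1, 5 and 3 of 9 beside 19.8% and 34.2% of all tested genes, and with median ratio scaling RUNX1 was also below 0 and BCL6 no longer above it, 6 and 2 of 9 beside 27.4% and 25.1%. No member departed by 1 or more, 0 of 9 where 6.76% of all tested genes did.

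TCF3 (ENSG00000071564, chr19:1609290-1652615, minus strand) encodes the E proteins E12 and E47. Expression was 113.1 FPKM with vehicle, 118.2 with histidine, 113.1 with 6-MP alone and 93.8 with both agents, from 9861, 11148, 10566 and 7366 reads. The combined library was the lowest and the other 3 lay close together. The ratio of reads per library total of the combined treatment to vehicle was 0.829 (95% interval 0.804 to 0.855), and the departure from additivity was -0.33 on the log2(FPKM + 1) scale.

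EBF1 (ENSG00000164330, chr5:158695916-159099916, minus strand) encodes the pioneer factor that opens B-cell genes. Its level in FPKM was 50.4 in the vehicle library, 50.1 in the histidine library, 48.2 in the 6-MP library and 42.2 in the combined library, from 4571, 4918, 4684 and 3448 reads. The combined treatment stood at a ratio of 0.837 (0.801 to 0.875) to vehicle, close to that of TCF3. PAX5 (ENSG00000196092, chr9:36833269-37034268, minus strand) was at 72.3, 69.4, 74.4 and 55.9 FPKM in the vehicle, histidine, 6-MP and combined libraries, from 9911, 10292, 10925 and 6897 reads. It was lowest in the combined library, with a ratio of 0.772 (0.749 to 0.797) to vehicle and 0.751 (0.728 to 0.774) to 6-MP alone, and only 11.6% of tested genes had a lower log2 difference from vehicle. The level of PAX5 relative to EBF1 stayed between 1.32 and 1.54 in the 4 libraries.

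IKZF1 (ENSG00000185811, chr7:50304068-50405101, plus strand), the Ikaros gene and a frequent target of deletion in high-risk B-ALL, had levels of 33.1 (vehicle), 35.0 (histidine), 30.1 (6-MP) and 23.4 FPKM (combined treatment), from 5172, 5911, 5048 and 3292 reads. The combined library was the lowest, followed by 6-MP. The ratio of the combined treatment was 0.706 (0.676 to 0.738) to vehicle and 0.669 (0.641 to 0.698) to histidine alone, and 7.80% of tested genes had a lower log2 difference from vehicle.

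The fusion partners differed in level and in direction. RUNX1 (ENSG00000159216, chr21:34787801-36004667, minus strand) was at 20.4 FPKM with vehicle, 20.4 with histidine, 18.6 with 6-MP alone and 18.2 with both agents, from 4542, 4919, 4441 and 3664 reads. The libraries with 6-MP were thus below those without it, and the combined treatment did not differ from 6-MP alone beyond counting error, with a ratio of 0.981 (0.939 to 1.03). With median ratio scaling that ratio was 0.886 (0.848 to 0.926), so the call depends on how the combined library is scaled. The departure of RUNX1 from additivity on the log2(FPKM + 1) scale was -0.03, and -0.14 with this scaling.

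ETV6 (ENSG00000139083, chr12:11649674-11895377, plus strand) was far lower, at 1.20, 1.15, 0.956 and 1.58 FPKM in the vehicle, histidine, 6-MP and combined libraries, from 124, 129, 106 and 147 reads. The combined library was the highest, with a ratio of 1.32 (1.03 to 1.68) to vehicle and 1.65 (1.28 to 2.14) to 6-MP. With median ratio scaling the ratio to vehicle was 1.18 (0.923 to 1.51) and included 1, and 59.5% of tested genes had a lower log2 difference from vehicle than ETV6. At this depth, the 6-MP library could not be distinguished from vehicle (0.798, 0.610 to 1.04). RUNX1 exceeded ETV6 by 17.0, 17.7, 19.4 and 11.6 times in FPKM in the 4 libraries. Both values are scaled to the length of the whole gene, although the fusion holds only the front of ETV6, which limits the comparison of their levels. The part of the fusion in them was not tested.

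LEF1 (ENSG00000138795, chr4:108047545-108168956, minus strand) encodes the Wnt pathway factor, and its departure from additivity on the log2(FPKM + 1) scale was -0.62, beside 0.43 for ETV6. On the log2 ratio of reads the departure was -0.63 (-0.69 to -0.57) for LEF1 and 0.78 (0.27 to 1.28) for ETV6, so which of them departed more depends on the scale. Levels were 122 FPKM in vehicle-treated cells, 125 with histidine, 128 with 6-MP alone and 84.9 with both, from 9369, 10403, 10527 and 5872 reads. The combined library stood well below the other 3, with a ratio of 0.696 (0.673 to 0.719) to vehicle and 0.663 (0.643 to 0.685) to 6-MP alone, and 6.95% of tested genes had a lower log2 difference from vehicle. The antisense gene LEF1-AS1 overlaps LEF1 on the other strand and was at 1.72, 1.84, 1.79 and 3.17 FPKM, from at most 249 reads. Whether strand was used in counting is not given in the sources used here. Over the 3 log2 differences from vehicle, the tested genes nearest to LEF1 were IARS1, RBM6 and USP5, at Euclidean distances of 0.025, 0.028 and 0.029.

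FOXO1 (ENSG00000150907, chr13:40555667-40666641, minus strand) encodes a forkhead factor that is kept out of the nucleus by PI3K and AKT signalling and drives RAG and IL7R transcription in pre-B cells. It was measured at 18.5 FPKM with vehicle, 20.3 with histidine, 20.01 with 6-MP alone and 27.4 with both agents, from 1576, 1875, 1829 and 2108 reads. All 3 treated libraries lay above vehicle, and the combined library was the highest, with a ratio of 1.48 (1.39 to 1.59) to vehicle, 1.37 (1.29 to 1.46) to 6-MP and 1.35 (1.27 to 1.44) to histidine. A log2 difference from vehicle lower than that of FOXO1 was found for 82.5% of tested genes. The level of LEF1 relative to FOXO1 was 6.61, 6.17, 6.40 and 3.10 in the 4 libraries.

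BCL6 (ENSG00000113916, chr3:187721377-187745725, minus strand) was at 15.4 FPKM with vehicle, 14.7 with histidine, 13.6 with 6-MP alone and 14.9 with both agents, from 1305, 1348, 1239 and 1140 reads. The 6-MP library was the lowest, at a ratio of 0.886 (0.819 to 0.958) to vehicle. The combined treatment did not differ from vehicle beyond counting error (0.970, 0.895 to 1.05), but was lower with median ratio scaling (0.870, 0.803 to 0.943). Against 6-MP it was 0.12 higher on the log2(FPKM + 1) scale, which turned to -0.017 with median ratio scaling.

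IRF4 (ENSG00000137265, chr6:391752-411443, plus strand) was the lowest member in every library and gave the largest ratio. Levels were 0.131 FPKM in vehicle-treated cells, 0.209 with histidine, 0.188 with 6-MP alone and 0.817 with both, from only 11, 19, 17 and 62 reads. The combined library was above each of the others, with a ratio of 6.26 (3.27 to 13.2) to vehicle, 4.34 (2.504 to 7.91) to 6-MP and 3.92 (2.31 to 6.94) to histidine. On the log2(FPKM + 1) scale the difference from vehicle was 0.68, since a pseudocount of 1 damps the change of a gene this low. BCL6 exceeded IRF4 by 117.5 times in FPKM with vehicle and by 18.2 times with the combined treatment. Over the 3 log2 differences from vehicle, PEA15, ITM2C and MRE11 were the nearest tested genes, at distances of 0.012, 0.023 and 0.026. This likeness holds on the damped scale only, since PEA15 was at 13.6 FPKM with vehicle and 22.4 with both agents, a far smaller ratio than that of IRF4.

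**Figure D3:**
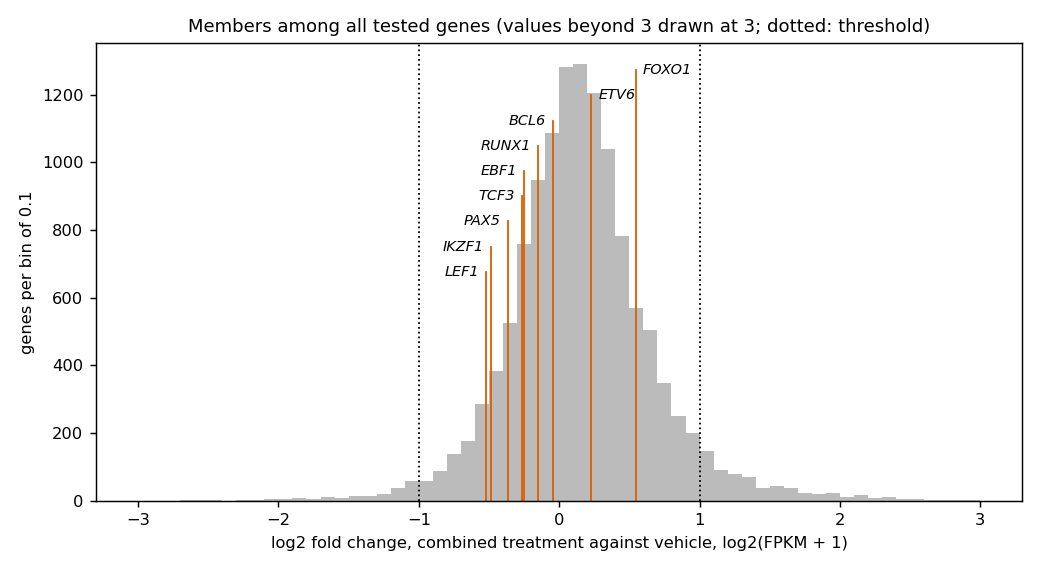
Distribution of the log2(FPKM + 1) difference between the combined treatment and vehicle (horizontal axis) over the 12750 tested genes, counted in bins of 0.1 (vertical axis), with the 9 tested members as vertical lines whose height carries no value and the fold threshold of 1 dotted. The members lie between -0.52 (LEF1) and 0.55 (FOXO1), inside the threshold on both sides.

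The genes that these factors work with were taken from lists, some of which share genes. Among 30 family paralogs, 15 were tested against vehicle in the combined library, with 2 higher by the fold threshold, 0 lower and a median of 0.15, where 5.01% of all tested genes were higher and 1.51% lower and their median was 0.13. EBF4, a paralog of EBF1, was at 3.33 FPKM with vehicle, 3.87 with histidine, 2.76 with 6-MP alone and 11.6 with both agents (log2 difference 1.55 from vehicle). IRF8, an IRF4 relative that shares its DNA site, was at 0.713, 0.498, 0.733 and 3.05 FPKM (1.24). Being under 1 FPKM outside the combined library, IRF8 was tested only because of its level there. IRF7 passed the threshold against histidine, by 1.21, and not against vehicle (0.77). The E protein TCF12 was at 33.7 FPKM with vehicle and 27.4 with the combined treatment (-0.29).

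Of 18 partners, corepressors and inhibitors, 15 were tested, with 1 higher, 0 lower and a median of 0.12, which turned to -0.03 with median ratio scaling. The one that passed was ID2, which binds E proteins such as TCF3 and keeps them off DNA, at 1.23, 1.11, 0.854 and 7.18 FPKM in the vehicle, histidine, 6-MP and combined libraries (1.87 against vehicle). CBFB, the partner of RUNX1, differed by -0.0056 and the corepressor TLE1 by -0.05. Of 17 other B-lineage and hematopoietic factors, 15 were tested, with 2 higher, 0 lower and a median of 0.03, which turned to -0.12 with that scaling. These were SPIB (0.652 FPKM with vehicle, 4.11 with the combined treatment, 1.63) and POU2F2 (0.747 and 4.27, 1.59), an ETS factor and an octamer factor of more mature B cells. Both were under 1 FPKM outside the combined library, so they were tested only because of their level there and could not have been counted as lower. The ETS factor ELF1 differed by -0.21 and MYB by 0.18.

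Among 15 pre-B targets of PAX5, EBF1 and TCF3, 12 were tested, with 1 higher, 0 lower and a median of 0.32, on the other side of 0 from the median of the members. CD72, a coreceptor that dampens B-cell receptor signalling, was the one, at 4.21, 5.53, 3.24 and 12.8 FPKM in the vehicle, histidine, 6-MP and combined libraries (1.40). CD79A, a signalling chain of the B-cell receptor and a PAX5 and EBF1 target, was at 246 FPKM with vehicle and 333 with the combined treatment (0.44). IGLL1, part of the surrogate light chain, differed by 0.07, and DNTT, the terminal transferase of V(D)J joining, by -0.16.

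Of 16 FOXO1 targets, 14 were tested, with 4 higher, 0 lower and a median of 0.35, where 5.01% of all tested genes were higher and 1.51% lower. CCR7, a homing receptor, was at 1.67, 2.24, 1.51 and 17.0 FPKM (2.75). PIK3IP1 (1.64), which restrains PI3K, GADD45A (1.61) and SESN1 (1.41), both stress response genes that p53 also induces, were the others. PIK3IP1 was under 1 FPKM outside the combined library and was tested only because of its level there. By the counting interval 11 of the 14 were higher and 2 lower, beside 42.7% and 20.8% of all tested genes. RAG1, the recombinase gene, had the lowest value of the list, -0.25, whereas RAG2 was at 0.32 and IL7R at 0.12.

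**Figure D4:**
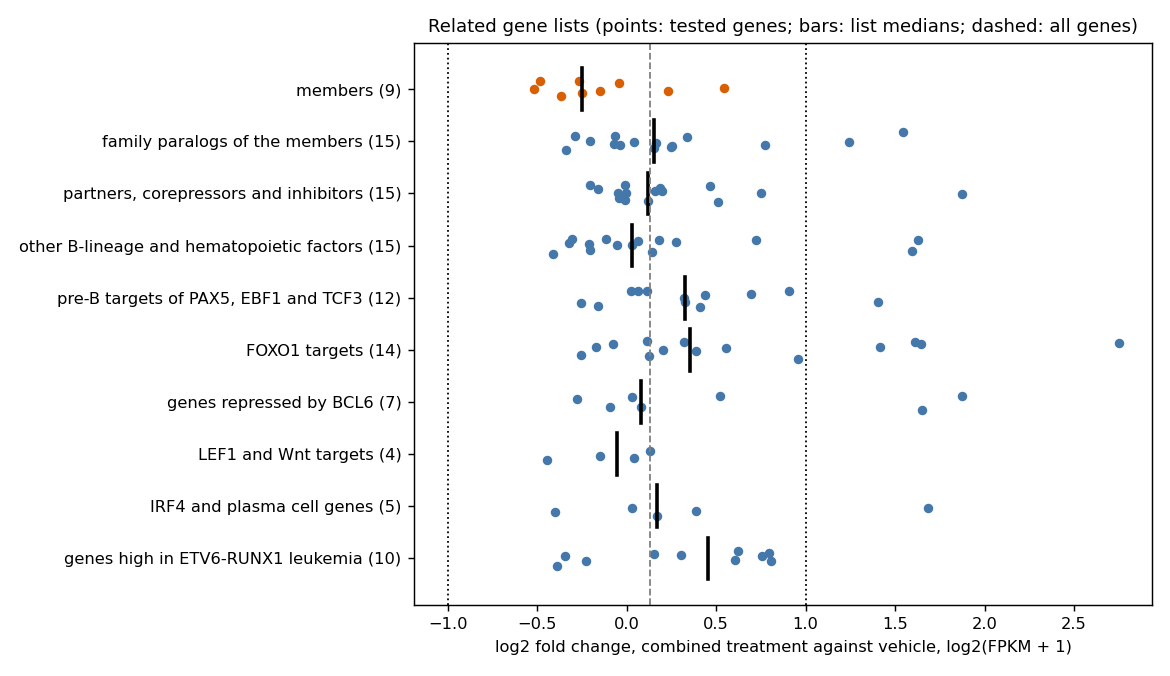
Log2(FPKM + 1) difference between the combined treatment and vehicle (horizontal axis) of every tested gene of the members and of 9 related gene lists (rows, with the number tested), with list medians as bars, the median of all tested genes dashed and the threshold of 1 dotted. The members' median is -0.25, and the medians of the lists run from -0.06 (LEF1 and Wnt targets) to 0.45 (genes high in ETV6-RUNX1 leukemia).

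Among 15 genes known to be repressed by BCL6, 7 were tested, with 2 higher, 0 lower and a median of 0.08, which turned to -0.06 with median ratio scaling. CDKN1A, the cell cycle inhibitor p21, was at 48.6 FPKM with vehicle, 42.8 with histidine, 41.4 with 6-MP alone and 155 with both agents (1.65), and ID2 was the other. CHEK1, a checkpoint kinase, differed by 0.03 and NFKB1 by -0.28. Of 11 LEF1 and Wnt targets, 4 were tested, 0 passed in either direction and the median was -0.06. These were the feedback inhibitors AXIN2 (0.13), ZNRF3 (-0.15) and RNF43 (-0.44) and the receptor LGR5 (0.04).

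Among 10 IRF4 and plasma cell genes, 5 were tested, with 1 higher, 0 lower and a median of 0.17. SDC1, the plasma cell surface proteoglycan CD138, was at 1.31 FPKM with vehicle and 6.44 with the combined treatment (1.68), whereas XBP1, the secretory pathway factor, was at 120.9 and 91.2 FPKM (-0.40), MZB1 differed by 0.03 and CD38 by 0.17. All 10 genes known to be high in ETV6-RUNX1 leukemia were tested, 0 passed in either direction and the median was 0.45. CD27, at 1.11, 0.830, 0.887 and 1.35 FPKM in the vehicle, histidine, 6-MP and combined libraries, was tested only because of its level in the last (0.15). BIRC7, an apoptosis inhibitor, differed by 0.60 and TCFL5 by 0.30, and PCLO (-0.39) and IGF2BP1 (-0.23), the 2 with the highest mean level, were lower.

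Markers of the labelled cell type were present in all 4 libraries. Of 12 B-lineage blast markers, 10 were tested against vehicle in the combined library, 0 passed the fold threshold and the median was 0.37, with 7 higher and 3 lower by the counting interval. Their summed level was 1492 to 1621 FPKM and was lowest with the combined treatment, where the abundant markers CD24 (309 FPKM with vehicle and 206 with both agents), DNTT (557 and 497) and RAG1 (243 and 204) were the 3 lower ones. CD34 was under 1 FPKM throughout, and VPREB1 was not found by that symbol among the genes of the deposited expression table. Among the markers of other cells, MPO, a myeloid granule enzyme, was above RUNX1, FOXO1 and BCL6 in every library, and the T-cell, erythroid and stromal lists were low. The 4 T-cell markers in the table summed to 1.87 to 3.08 FPKM, and BCL11B was the 1 tested (0.39). The 4 myeloid markers summed to 27.0 to 31.2 FPKM in the vehicle and monotherapy libraries and to 43.7 with the combined treatment, almost all of it from MPO (27.7 with vehicle, 30.5 with histidine, 26.4 with 6-MP alone and 41.0 with the combined treatment, 0.55), while CD14 was under 1 FPKM throughout. The 5 erythroid and stromal markers summed to 1.35 to 1.48 FPKM in the vehicle and monotherapy libraries and to 2.87 with the combined treatment. COL1A1 was the 1 tested (0.70), and only because of its level in the combined library (0.869, 1.05, 1.03 and 2.04 FPKM in the vehicle, histidine, 6-MP and combined libraries). These sums were highest in the same library in which FOXO1, ETV6 and IRF4 were highest and the early factors lowest, and their part in the results was not tested.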

How the data were processed

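RNA-seq data of Reh-6-MPR cells were available as 1 library for each of 4 treatments, grouped by the treatment label. A service company sequenced the stranded mRNA libraries and quantified the genes. The authors deposited FPKM values per gene with symbols, biotypes and positions. The submitters' processing notes list Trimmomatic, HISAT2, Cufflinks and HTSeq and the builds hg38 and GRCh38, without versions. The annotation release and the strand setting of the counting are not given in the sources used here.

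Each FPKM value of a gene is a multiple of the step that a single read adds, from which reads and library totals were recovered. Reads came out whole for 29832 of 29833 genes and summed to 100.5% of the library totals. The recovered lengths of the members were 95.6% to 102.5% of those in GENCODE 29. Differences of log2(FPKM + 1) were computed for the 12750 genes with a mean of at least 1 FPKM, and counted at an absolute value of at least 1. The mean includes the combined library, so a gene high only there can pass the filter through it. Ratios of reads per library total carry exact Clopper-Pearson 95% intervals, and the departure from additivity has a normal interval on the log reads. No test was run, since there are no replicates.

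The members and the 13 gene lists were chosen with earlier results of these data known. All members are named. Of each list up to 4 genes are named, first those past the threshold in any comparison of the combined treatment, by size, then those with the highest mean FPKM (1 gene that this rule names is not reported here), and RAG1, CD24, CD34, CD14 and the single tested marker genes were added after their values were seen. The 3 nearest genes are given for the 2 members with the largest departure from additivity on the log2(FPKM + 1) scale over all 10 members. There were 7 alternatives and 1 added after seeing the data. The recovery of reads and library totals, the fold calls of the combined treatment against vehicle and the exact interval were checked on simulated data. The other calculations were not. The software was scipy 1.17.1, pandas 2.3.3, numpy 2.4.6 and matplotlib 3.10.9 under Python 3.11.15.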

Additional observations from a re-analysis of the deposited data

Results flagged for a closer look

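In 4 contrasts the log2 ratio of reads per library total had opposite signs, beyond counting error, without and with the other agent. The differences were not tested, since each treatment had 1 library. The share of all tested genes with such opposite signs was not computed, so whether 4 is many for these genes cannot be told. The effect of histidine on IKZF1 was 0.08 (95% interval 0.03 to 0.13) without 6-MP and -0.37 (-0.43 to -0.30) with it, a difference of -0.45. For TCF3 the same contrast was 0.06 (0.02 to 0.10) without and -0.27 (-0.31 to -0.23) with 6-MP, a difference of -0.33. The effect of 6-MP on PAX5 was 0.04 (0.0013 to 0.08) without histidine, or 0.03 (-0.0072 to 0.07) with median ratio scaling, and -0.31 (-0.36 to -0.27) with it, a difference of -0.35. For LEF1 the effect of 6-MP was 0.07 (0.03 to 0.11) without and -0.56 (-0.61 to -0.52) with histidine, a difference of -0.63. After that scaling 3 of the 4 contrasts kept opposite signs beyond counting error, that of PAX5 did not, and the lower bounds without the other agent were 0.0011 for IKZF1, 0.000273 for TCF3 and 0.02 for LEF1. All 4 differences include the library of the combined treatment. The values without the second agent were small, and those of all 4 genes lie within the central 95% of genes with a mean of at least 10 FPKM in the comparisons of the monotherapies with vehicle.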

How the results depend on the processing

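The number of members past the fold threshold was 0 in every comparison under 6 of the 7 alternatives set at the outset. With TPM scaling it was 1, IRF4, for the combined treatment against vehicle, against 6-MP and against histidine and for the departure from additivity. Its log2 differences there were 1.52, 1.31, 1.24 and 1.03. IRF4 passed the filter under TPM scaling only because of its level in the combined library. TPM values are also larger than FPKM values here, so the pseudocount of 1 damps them less. By reads, the interval of the IRF4 departure included 0 with median ratio scaling (-0.0036 to 2.64). Without the filter alone IRF4 was also tested, and 0 members passed. The number of members was likewise 1 in these 4 cases with a pseudocount of 0.1 and no filter on low values together. This alternative was chosen after seeing the data and gave IRF4 log2 differences of 1.99, 1.67 and 1.57 in the 3 comparisons. The difference of BCL6 between the combined treatment and 6-MP reversed, to -0.017, with median ratio scaling. Of the other single-gene and all-gene values, 211 were kept and 76 moved. The number of all tested genes past the threshold for the combined treatment against vehicle, 832, was 266 at a threshold of 1.5, 303 with a mean of at least 5 FPKM, 422 for protein-coding genes only, 1513 with a pseudocount of 0.1, 3106 with TPM scaling and 7040 with the added alternative. For histidine against vehicle 170 became 19 to 3782, for 6-MP 151 became 15 to 3714, against 6-MP 767 became 246 to 6845, against histidine 707 became 224 to 6716, and for the departure from additivity 862 became 282 to 8514. No paired analysis was possible because only 1 library was made per treatment, and for the same reason no library could be left out. The reads of IRF4 (11 to 62) and ETV6 (106 to 147) limit what can be resolved for these members.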

Other observations

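Other factors of the lists are given here by the log2 ratio of reads per library total of the combined treatment to vehicle, with the 95% interval, and were chosen after their values were seen. Abundant hematopoietic factors lay on both sides of 0. ERG, an ETS factor of blood stem cells, stood at -0.42 (-0.48 to -0.37), MEF2C at -0.33 (-0.37 to -0.29), ETS1 at -0.32 (-0.38 to -0.25) and BACH2, a repressor of plasma cell fate, at -0.25 (-0.42 to -0.09), whereas SPI1 (PU.1), a factor of myeloid and early B cells, stood at 0.74 (0.61 to 0.88).

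Relatives, partners and targets of the members that were below a mean of 1 FPKM were higher in the same library where their intervals excluded 0. RUNX2, at 0.0085 FPKM with vehicle and 0.189 with both agents, had a log2 ratio of 4.47 (1.83 to 9.85), and RUNX3, at 0.0142 and 0.173 FPKM, one of 3.61 (0.83 to 9.04). TCF7, a relative of LEF1, stood at 2.08 (0.61 to 3.85), EBF3 at 1.36 (0.77 to 1.96), ID1, an inhibitor of E proteins, at 2.04 (0.80 to 3.49) and PRDM1, the plasma cell regulator that BCL6 represses, at 2.92 (1.55 to 4.63). The intervals are wide because few reads lie behind the values, and the combined library had the most genes above 0. With vehicle RUNX2 and RUNX3 had 1 read each, TCF7 and PRDM1 5 each, ID1 7 and EBF3 36. From 1 vehicle read an interval could not fall below 0, so the shared direction was partly set by the low counts. The share of all genes below a mean of 1 FPKM that were higher was not computed.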
